A study of Bos taurus with 42 samples.

Results

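The comparison asked how the small RNAs of fertilised bovine 2-cell embryos differ from those of the oocyte. It used 7 of the 42 libraries of the series, chosen by their labels alone. These were the 4 libraries of 2-cell embryos made by in vitro fertilisation (IVF 2-cell, replicates 1 to 4) and the 3 libraries of metaphase II oocytes (replicates 1, 3 and 4). The IVF 2-cell embryos came from matured oocytes fertilised with semen of a Holstein bull. They were grown on a monolayer of bovine cumulus cells, the somatic cells that surround the egg, and were collected on day 2 in pools of 20. The oocytes had been matured in culture with follicle-stimulating and luteinising hormone, and the labels name no breed for them. Small RNA under 200 nucleotides was sequenced on an Ion Proton instrument. The labels give neither the donors nor the pool size of the oocytes, and they speak of 4 embryo pools in one place and 3 in another. Nothing in them ties an embryo pool to an oocyte pool or says that replicates were separate collections. The p-values therefore concern only these libraries. For single small RNAs they rest on a spread pooled over small RNAs of similar level, and not on each one's own spread.

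The 2-cell embryo still runs largely on RNA and protein laid down in the oocyte, since bovine embryos switch on most of their own genes some divisions later. PIWI-interacting RNAs (piRNAs) are germline small RNAs, cut from long transcripts of genomic clusters, that guide PIWI proteins to transposon and other transcripts. MicroRNAs (miRNAs) pair with messenger RNAs and lower their output. Fragments of transfer RNA (tRNA) arise by cleavage of mature or precursor tRNAs. 5′ tiRNAs run from the 5′ end of a mature tRNA to its anticodon loop, where angiogenin is a known cutting enzyme, and shorter 5′ fragments end earlier, in or near the D-loop.

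The deposited table held 12345 annotated entries, of which 9474 were piRNAs, 907 were tRNA-derived and 392 were bovine miRNAs without a mismatch to their annotation. The table gave names but no sequences, so entries are described by name, and entries that share a name are numbered. Reads were recovered from the authors' transformed values. They came to 381043 to 523545 listed reads in the IVF 2-cell libraries, against 408953 to 506363 in the oocyte libraries. All 12345 entries had reads in 1 library of cloned (NT) 2-cell embryos, replicate 4, and no other library held them all. An RNA of oocytes that was not seen in that library was therefore not analysed here, and the list leans towards what 2-cell embryos hold. Of the 10426 entries found in any of the 7 libraries, 1957 were found only in IVF 2-cell embryos and 1224 only in oocytes. These counts set 4 libraries against 3. Entries found per library were alike, at 5536 to 6229 in IVF 2-cell embryos and 5676 to 6101 in oocytes. In all IVF 2-cell libraries and no oocyte library 36 entries were found, and in all oocyte libraries and no IVF 2-cell library 50.

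IVF 2-cell replicate 3 stood apart from the other 6 libraries. The authors' size factor was 0.684 for this library, against 0.192 to 0.265 in the other IVF 2-cell libraries and 0.199 to 0.284 in the oocyte libraries. It also carried more miRNAs typical of cumulus and granulosa cells. The summed level of these miRNAs, 22 entries under 10 names that were all detected, was 691, 1808, 35192 and 6217 CPM (reads scaled to the same total of listed reads in every library) in IVF 2-cell replicates 1 to 4, against 5575, 1690 and 3203 in oocyte replicates 1, 3 and 4. miR-21-5p, the leading member, had 17792 normalised reads in replicate 3 and 1086 to 8373 in the other IVF 2-cell libraries, against 2411 to 7510 in oocytes. Several other miRNA lists were also highest in CPM in replicate 3, where miRNAs as a class held 8.88% of listed reads. Not all were, as the muscle and neural list, at 518 CPM, and the epithelial and trophectoderm list, at 306, were lowest there. The let-7 family had 6170 CPM in replicate 3 and 418 to 1614 in the other IVF 2-cell libraries, the miR-17-92 family 11283 and 2242 to 4808, and the mesenchymal list 976 and 354 to 567. As a share of miRNA reads, however, the miR-17-92 family and the mesenchymal list were lowest in replicate 3, at 14.1% and 1.22%. The let-7 family was highest there by share too, at 7.73%. The source of these miRNAs was not tested, and in pooled material more cells of a type and more RNA per cell cannot be told apart. The called entries and the shares of the main classes are given with and without replicate 3.

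The make-up of the small RNA pool overlapped between the groups. piRNAs took up 91.3%, 87.6%, 73.0% and 88.0% of listed reads in IVF 2-cell replicates 1 to 4, against 90.1%, 91.5% and 88.1% in oocyte replicates 1, 3 and 4. The lowest value was that of replicate 3, and the other 6 libraries overlapped. The mean share was 85.0% ± 8.15 in IVF 2-cell embryos and 89.9% ± 1.73 in oocytes (SD, n = 4 and 3). By a two-sided exact permutation test over libraries this gave p = 0.486, or 0.926 after adjustment for the 9 classes. tRNA-derived reads made up 7.15% ± 4.27 in IVF 2-cell embryos and 4.34% ± 1.72 in oocytes (n = 4 and 3, exact permutation p = 0.371, adjusted p = 0.926). miRNAs made up 3.89% ± 3.42 in IVF 2-cell embryos and 2.49% ± 0.664 in oocytes (n = 4 and 3, exact permutation p = 0.8286). Without replicate 3 the difference was -0.971 percentage points for piRNAs, against -4.96 with it, and 0.875 for tRNA-derived reads, against 2.81. For miRNAs it turned to -0.262 percentage points, against 1.40. With 4 libraries against 3, no exact p can be smaller than 0.0286. Within the tRNA-derived reads, the share of 5′ tiRNAs was 28.1%, 37.5%, 59.8% and 16.6% in IVF 2-cell replicates 1 to 4, against 20.0%, 9.54% and 49.6% in oocyte replicates 1, 3 and 4 (exact permutation p = 0.543). Oocyte replicate 4 was high among the oocytes in this measure, and the groups overlapped. The difference was 9.12 percentage points, 1.01 without IVF 2-cell replicate 3 and 0.699 without oocyte replicate 3.

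**Figure D1:**
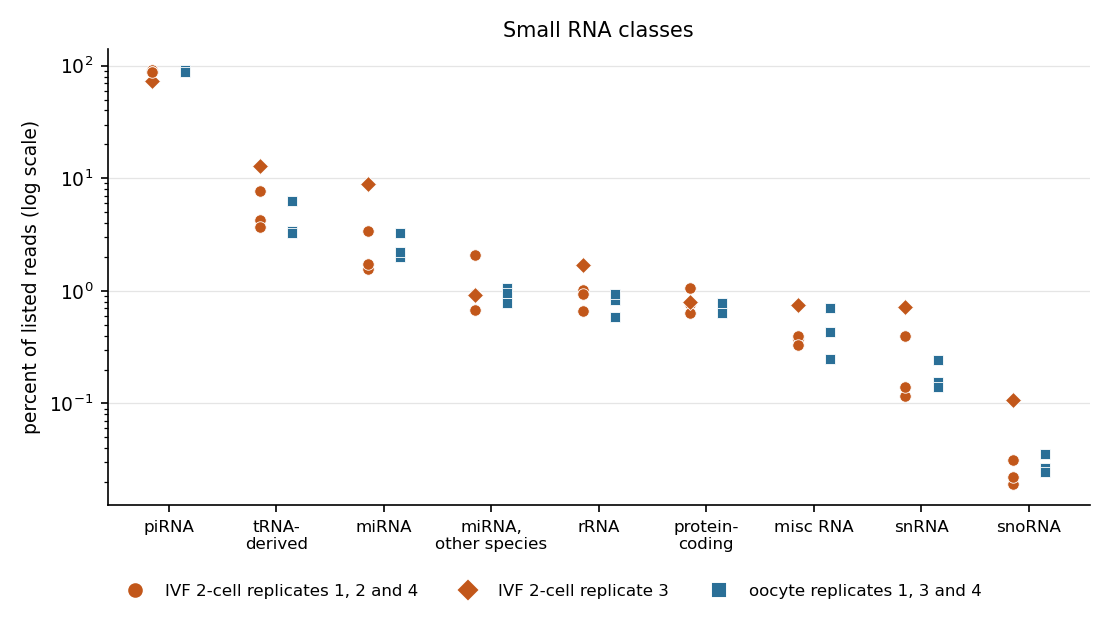
Share of listed reads (percent, log scale) held by each class of small RNA, 1 point per library, with IVF 2-cell libraries left of oocyte libraries. piRNAs dominated every library, from 73.0% in IVF 2-cell replicate 3 (diamond) to 91.5% in an oocyte library, and the groups overlapped in all 9 classes.

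Entry by entry, few small RNAs differed, and most of those were fragments of tRNAs that were higher in the embryos. limma, fitted on the authors' variance-stabilised log2 values of the 7 libraries, called 10 of 6531 tested entries higher in IVF 2-cell embryos (0.153%) and 1 lower (0.0153%), at a Benjamini-Hochberg adjusted p under 0.05, or 0.168% in all. Of the 10 higher entries, 7 were 5′ tiRNAs, 1 was a shorter 5′ tRNA fragment, 1 an internal tRNA fragment and 1 an entry from a predicted protein-coding transcript. The 1 lower entry was a piRNA. The calls rest on few libraries, and their standard errors follow the level of an entry and not its own spread. None remained without IVF 2-cell replicate 3 (423 entries at an unadjusted p under 0.05), and 4, 3 and 2 were called without IVF 2-cell replicate 1, IVF 2-cell replicate 2 and oocyte replicate 1. The direction of every called entry stayed the same in each of these fits. On CPM and after quantile normalisation, 0 of these called entries were called.

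The 5′ tiRNA of valine tRNA with anticodon AAC (ValAAC, trna8133) had the smallest adjusted p. It had 2584, 4693, 9707 and 864 normalised reads in IVF 2-cell replicates 1 to 4, against 151, 157 and 443 in oocyte replicates 1, 3 and 4. Every IVF 2-cell library exceeded every oocyte library, and replicate 3 was the highest. The log2 change was 3.82 (SE 0.67, limma adjusted p = 8.27e-05), and 3.29 without replicate 3 (adjusted p = 0.124).

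The 5′ tiRNAs of valine tRNAs with anticodon TAC behaved alike. The entry of trna3277 had 465, 125, 1044 and 327 normalised reads in IVF 2-cell replicates 1 to 4, against 20.1, 9.80 and 38.7 in oocytes, a log2 change of 3.93 (SE 0.72, limma adjusted p = 0.00015). The entry of trna4963 had 251, 162, 913 and 181 normalised reads in the same IVF 2-cell libraries, against 20.1, 19.6 and 45.7 in oocytes, a log2 change of 3.22 (SE 0.72, adjusted p = 0.00866). The groups were apart in both entries, with replicate 3 at the top. Without it the log2 changes were 3.44 (adjusted p = 0.124) and 2.67 (adjusted p = 0.169). The entry of trna1469 had 36.5, 90.7, 152.1 and 34.2 normalised reads in IVF 2-cell replicates 1 to 4 and no read in any oocyte library. Taking 3 reads as the limit that a count of 0 allows in each oocyte library, it was at least 5.83-fold higher in IVF 2-cell embryos (limma adjusted p = 0.00866, and 0.332 without replicate 3).

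Valine TAC tRNAs are near-identical copies, so how reads divide among these entries is uncertain. The sum over all valine 5′ tiRNAs, given with the other amino acids, does not depend on that division.

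The glycine tRNA with anticodon CCC annotated as trna6425 gave a pair of called entries. Its 5′ tiRNA had 2229, 9591, 3797 and 971 normalised reads in IVF 2-cell replicates 1 to 4, against 367, 206 and 383 in oocytes, a log2 change of 3.26 (SE 0.68, limma adjusted p = 0.00316). Its short 5′ fragment had 1519, 1171, 4975 and 1591 normalised reads in the IVF 2-cell libraries, against 951, 103 and 264 in oocytes, a log2 change of 2.68 (SE 0.67, adjusted p = 0.0348). Neither entry overlapped between the groups. The 5′ tiRNA was highest in replicate 2 and the short fragment in replicate 3. Without replicate 3 the log2 changes were 3.14 (adjusted p = 0.275) and 2.23 (adjusted p = 0.444).

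The lysine CTT entry (trna5639) had 329, 1202, 1496 and 181 normalised reads in IVF 2-cell replicates 1 to 4, against 45.3, 58.8 and 169 in oocytes (log2 change 2.81, SE 0.67, limma adjusted p = 0.0226). Replicate 4 lay just above the highest oocyte library, and the log2 change without replicate 3 was 2.35 (adjusted p = 0.444). The alanine AGC entry (trna1481) had 52.2, 52.9, 228 and 39.0 normalised reads in IVF 2-cell embryos, against 0, 9.80 and 0 in oocytes (log2 change 4.06, SE 1.00, adjusted p = 0.0318). The groups were apart at low counts, and the log2 change without replicate 3 was 3.52 (adjusted p = 0.449). An internal fragment of leucine CAG tRNA (trna3454) had 73.1, 90.7, 21.9 and 239 normalised reads in IVF 2-cell embryos, against 0, 0 and 14.1 in oocytes (log2 change 4.06, SE 0.98, adjusted p = 0.0226). Here replicate 3 was the lowest embryo library, and the log2 change without it was 4.61 (adjusted p = 0.275).

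An entry annotated to the predicted transcript GENSCAN00000033742, for which the sources name no gene, had 110, 351, 455 and 19.52 normalised reads in IVF 2-cell replicates 1 to 4, against 0, 19.6 and 10.5 in oocytes (log2 change 3.89, SE 0.84, limma adjusted p = 0.00487). Replicate 4 fell within the oocyte range, so the groups touched, and the log2 change without replicate 3 was 3.34 (adjusted p = 0.466). The 1 entry that fell was a piRNA of a cluster at chr10:73942139-73962808, annotated with the mismatch C12T, with bases and position as the table annotates them. It had 0, 52.9, 0 and 78.1 normalised reads in IVF 2-cell replicates 1 to 4, against 221, 176 and 225 in oocytes (log2 change -3.98, SE 0.85, adjusted p = 0.00463). All IVF 2-cell libraries lay below all oocyte libraries, as they did for 3.92% of tested entries. Without replicate 3 the log2 change was -3.19 (adjusted p = 0.466).

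**Figure D2:**
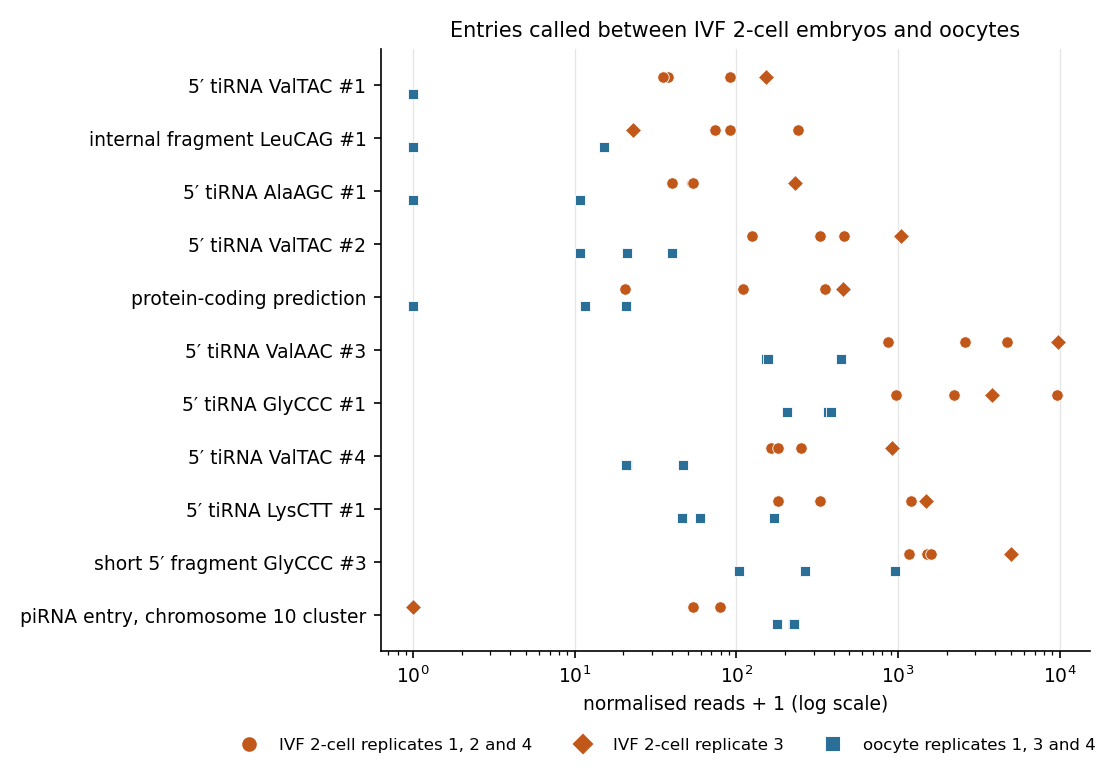
Normalised reads plus 1 (log scale) of the 11 called entries in each library, with IVF 2-cell libraries drawn above oocyte libraries. In 10 of them the IVF 2-cell points lie to the right, with 1 touching point in the protein-coding prediction, and in the piRNA entry at the bottom to the left. IVF 2-cell replicate 3 (diamond) is often the highest of the tRNA fragments, and the ValTAC entry at the top had no oocyte read.

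Seen as a group, the 5′ tiRNAs of numbered tRNA genes leaned towards the embryo. Of 64 listed 5′ tiRNAs, 41 passed the filter on low values, and of these 18 were higher (43.9%) and 3 lower in IVF 2-cell embryos at an unadjusted p under 0.05. Over all tested entries these shares were 2.01% higher and 3.38% lower. The median log2 change of the 41 was 1.74, against -0.37 over all 6531. Without IVF 2-cell replicate 3 the median over all tested entries was -0.03. All 18 higher ones belonged to the 31 tested entries of numbered tRNA genes, of which 29 had a positive change. Among the 18 were ValTAC (trna1469), LysTTT (trna1458), GluCTC (trna3318) and GlnCTG (trna7898), which had no oocyte read. They passed the filter through the embryo libraries alone, so they could only come out positive. The 10 tested entries that carry Ensembl transcript identifiers in place of a tRNA name went the other way, with 1 positive change, 3 lower at an unadjusted p under 0.05 and a median of -1.16. The one with the smallest unadjusted p, with identifier ENSBTAG00000043562, had 762, 495, 181 and 605 normalised reads in IVF 2-cell replicates 1 to 4, against 3428, 333 and 7964 in oocytes (limma adjusted p = 0.233). Its groups overlapped through oocyte replicate 3.

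By amino acid, valine stood out in a measure that uses no scaling between libraries. Valine 5′ tiRNAs made up 10.5%, 10.2%, 24.1% and 12.4% of all 5′ tiRNA reads in IVF 2-cell replicates 1 to 4, against 1.36%, 2.41% and 1.01% in oocyte replicates 1, 3 and 4. The mean was 14.3% ± 6.63 in IVF 2-cell embryos and 1.59% ± 0.731 in oocytes (SD, n = 4 and 3). Replicate 3 was the highest, and the other 3 embryo libraries lay close together and far above every oocyte library. Of 16 such shares, that of valine was the only one without overlap between the groups. It was picked out for this, so no test is given.

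In CPM, valine 5′ tiRNAs had 1243, 2967, 18707 and 756 in IVF 2-cell replicates 1 to 4, against 92.9, 75.0 and 317 in oocytes. The ratio of means was 36.6, and 10.3 without replicate 3. On this scale 4.01% of all tested entries lay higher in every embryo library than in any oocyte library, and 4.29% lower. Alanine, glutamate and proline were the other 3 of 16 sums in which every embryo library exceeded every oocyte library. Without replicate 3 the ratio of means was 3.60 for alanine, against 10.4 with it, 2.57 for glutamate, against 7.88, and 3.81 for proline, against 9.87. Proline 5′ tiRNAs had 97.4 to 1131 CPM in IVF 2-cell embryos, against 29.3 to 60.1 in oocytes. Lysine 5′ tiRNAs had 606 to 12437 CPM in IVF 2-cell embryos, against 186 to 749 in oocytes, a small overlap. Glycine 5′ tiRNAs, the most abundant, did not separate the groups, with 5172, 19339, 34508 and 3042 CPM in IVF 2-cell replicates 1 to 4, against 1900, 1505 and 21937 in oocytes. Oocyte replicate 4 lay among the embryo libraries there. Most of this came from GlyGCC, with 27308 normalised reads in that oocyte library, against 1228 and 1671 in the other oocyte libraries.

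**Figure D3:**
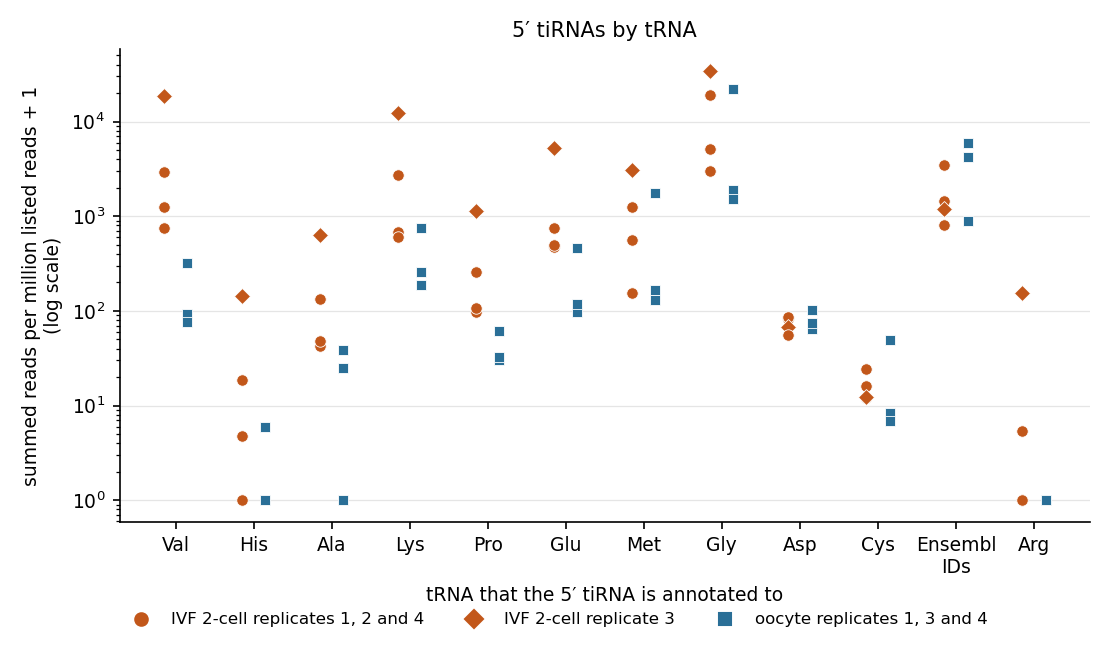
Summed 5′ tiRNA CPM plus 1 (log scale), by the amino acid of the tRNA, 1 point per library, with IVF 2-cell libraries left of oocyte libraries and tRNAs ordered by the ratio of means (Arg, at the end, had no oocyte read). Valine shows the widest gap, 756 to 18707 against 75.0 to 317, while glycine overlaps, with oocyte replicate 4 at 21937.

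Short 5′ fragments of the tRNAs with called 5′ tiRNAs overlapped between the groups, except for GlyCCC (trna6425). Those of the valine TAC, lysine CTT and alanine AGC tRNAs had at most 57.4 normalised reads in any library, so their overlap says little. The short 5′ fragment of ValAAC (trna8133) had 1769, 1126, 449 and 1181 normalised reads in IVF 2-cell replicates 1 to 4, against 1168, 1524 and 1410 in oocytes (log2 change -0.42, SE 0.68, limma adjusted p = 0.941). Its groups overlapped. The ratio of 5′ tiRNA to short-fragment reads of this tRNA was 1.46, 4.17, 21.6 and 0.731 in IVF 2-cell replicates 1 to 4, against 0.129, 0.103 and 0.314 in oocytes. In this ratio, which needs no scaling, every embryo library exceeded every oocyte library. The tRNA was taken because its 5′ tiRNA was called, so the ratio is no separate support for that call. The same ratio for GlyCCC (trna6425), whose short fragment was called too, overlapped, at 1.47, 8.19, 0.763 and 0.610 in IVF 2-cell replicates 1 to 4, against 0.386, 2.00 and 1.45 in oocytes. Over all short 5′ fragments, 62 of 103 were tested, and 1 was higher and 1 lower at an unadjusted p under 0.05 (1.61% each). Over all entries these shares were 2.01% and 3.38%. The median log2 change of the short 5′ fragments was -0.18, against -0.37 over all entries.

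Internal fragments, which hold neither end of the tRNA, leaned towards the embryo in part. Of 106 tested, 11 were higher (10.4%) and 5 lower (4.72%) at an unadjusted p under 0.05, against 2.01% and 3.38% over all entries, and 1 was called. Of 23 sums by tRNA in CPM, 6 lay higher in every embryo library than in any oocyte library (Ala, Ile, Leu, Pro, Thr and Val) and 0 lower. Among single tested entries of all kinds, 4.01% lay higher in this way in CPM and 4.29% lower. The internal fragment of ValAAC (trna8133) had 183, 321, 241 and 132 normalised reads in IVF 2-cell replicates 1 to 4, against 101, 19.6 and 109 in oocytes (log2 change 1.68, SE 0.71, limma unadjusted p = 0.0182, not called after adjustment). Its groups did not overlap, as in 1.27% of all tested entries on the higher side in normalised reads.

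The 3′ ends of the tRNAs showed smaller contrasts. Fragments from the mature 3′ end that keep the added CCA, the site where the amino acid is attached, did not overlap between the groups for 6 of 19 tRNAs, all higher in IVF 2-cell embryos. Single entries did so in CPM in 4.01% of cases on the higher side and 4.29% on the lower. Valine CCA fragments had 267, 153, 226 and 346 CPM in IVF 2-cell replicates 1 to 4, against 70.9, 67.1 and 66.1 in oocytes. Replicate 3 was not the highest here, and the ratio of means was 3.65, or 3.76 without it. Aspartate CCA fragments had 657 to 1241 CPM in IVF 2-cell embryos, against 445 to 648 in oocytes. No CCA fragment passed the adjusted test, with 3 of 70 higher (4.29%) and 1 lower (1.43%) at an unadjusted p under 0.05, against 2.01% and 3.38% over all entries.

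Pieces of precursor tRNAs, which are cut off in the nucleus as a tRNA matures, did not share this direction. Precursor leaders had 1127, 1060, 1067 and 1378 CPM in IVF 2-cell replicates 1 to 4, against 1448, 1617 and 1382 in oocytes. The groups were apart by a narrow margin. Of 192 tested precursor trailers, none was higher and 7 were lower at an unadjusted p under 0.05 (3.65%, against 3.38% over all entries), with a median log2 change of -0.50.

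**Figure D4:**
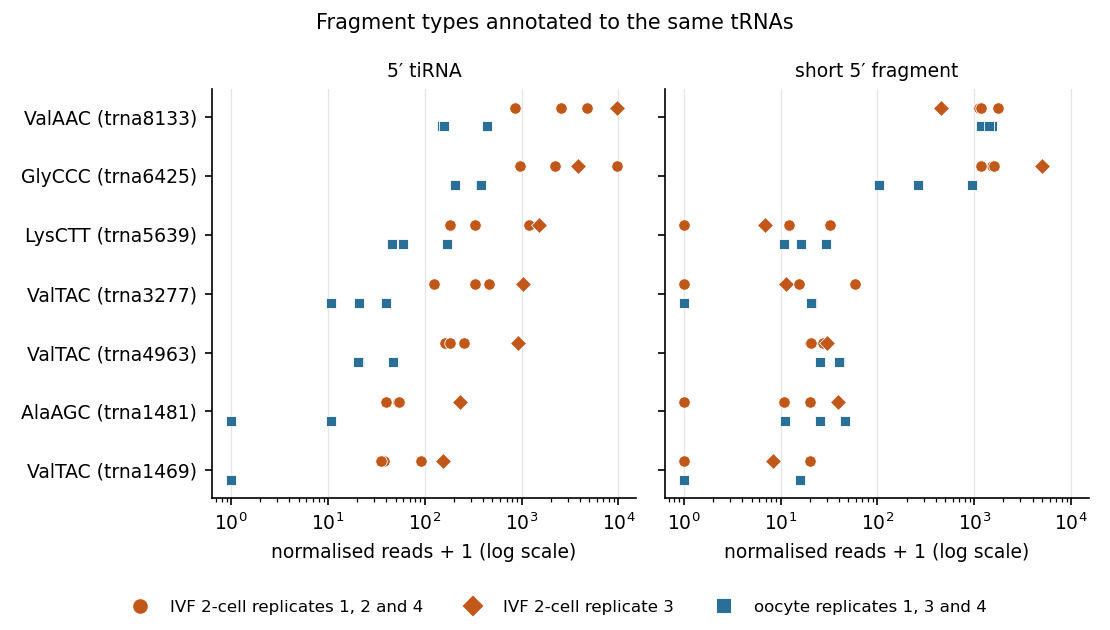
Normalised reads plus 1 (log scale) of the called 5′ tiRNAs (left panel) and of the short 5′ fragments annotated to the same 7 tRNA genes (right panel), with IVF 2-cell libraries above oocyte libraries. The groups are apart in all 7 5′ tiRNAs, which were picked as called entries. Among the short fragments, which were not picked by their values, they are apart for GlyCCC (trna6425) only. The short fragments other than those of GlyCCC and ValAAC had few reads, so their overlap says little.

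The genomic clusters that supply the piRNAs held similar shares of reads in all libraries. The 3 largest of 616 clusters together gave 66.3% to 69.1% of piRNA reads across all 7 libraries. The cluster at chr6:110178897-110333441 gave 32.4%, 32.5%, 31.1% and 32.3% of piRNA reads in IVF 2-cell replicates 1 to 4, against 32.3%, 33.3% and 32.8% in oocytes (two-sided exact permutation p = 0.229, adjusted p = 0.500 over the 10 largest clusters). The clusters at chr17:62734087-62862016 and chr23:13905000-14137856 averaged 18.3% and 17.7% in IVF 2-cell embryos, and 17.8% and 17.5% in oocytes (n = 4 and 3, exact permutation p = 0.314 and 0.514). The 10 largest clusters together held 81.5% of piRNA reads in both groups. None of the 10 passed the adjusted exact test. Among single piRNA entries, 5105 were tested, 69 were higher (1.35%) and 180 lower (3.53%) at an unadjusted p under 0.05. The shares over all 6531 tested entries were 2.01% and 3.38%, but piRNAs are most of these entries, so a near match says little.

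What did differ within the piRNAs was the kind of mismatch at late annotated positions. Entries annotated with a change to A at position 24 or later took up 1.07%, 1.47%, 1.02% and 1.06% of piRNA reads in IVF 2-cell replicates 1 to 4, against 0.708%, 0.695% and 0.755% in oocyte replicates 1, 3 and 4. Every embryo library exceeded every oocyte library, and replicate 3 was the lowest of the embryo libraries. The mean was 1.16% ± 0.211 in IVF 2-cell embryos and 0.719% ± 0.0314 in oocytes (SD, n = 4 and 3). The set was chosen after values were seen, from 8 sets by base and position, so it carries no test. All piRNA mismatches together made up 20.4% of piRNA reads in both groups.

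The excess of A lay at the last positions. At position 26 a change to A took up 0.362%, 0.487%, 0.314% and 0.313% of piRNA reads in IVF 2-cell replicates 1 to 4, against 0.175%, 0.185% and 0.187% in oocytes, 2.03 times as much by the means. At position 27 the ratio was 2.45, at position 25 it was 1.23, and at positions 20 to 24 it was 0.80 to 0.93. Changes to C, G or T at positions 26 to 28 gave ratios of 0.89 to 1.04, with overlapping groups. They were higher without overlap at positions 23 and 25, and at position 25 they took up 0.254% to 0.292% in IVF 2-cell embryos, against 0.190% to 0.210% in oocytes. Late changes to G also did not overlap, at 0.289% to 0.362% in IVF 2-cell embryos and 0.230% to 0.266% in oocytes. Entry by entry they did not rise. Of 51 tested, 13 had a positive change (25.5%, against 35.3% over all entries), and the median log2 change was -0.43. At an unadjusted p under 0.05, 1 was higher and 2 were lower.

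**Figure D5:**
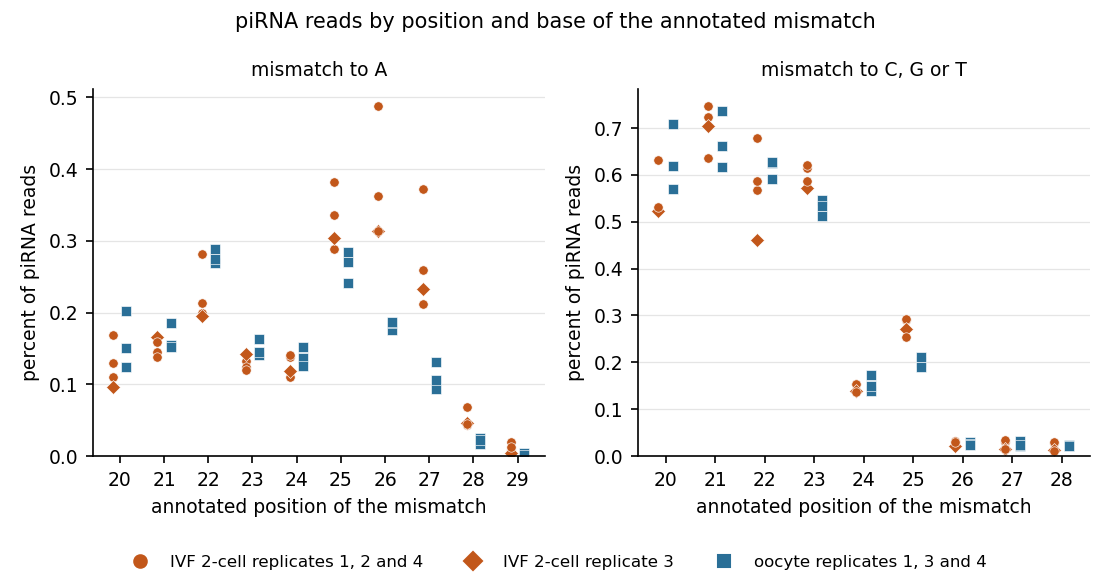
Percent of piRNA reads by the annotated position of the mismatch, for changes to A (left panel) and to C, G or T (right panel, own scale), 1 point per library, with IVF 2-cell libraries left of oocyte libraries. From position 25 on, the IVF 2-cell points for A lie above the oocyte points, and at positions 20 to 24 the groups overlap.

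Split by cluster, the same chosen set was higher without overlap in 4 of the 5 largest clusters. The clusters and entries given here are parts of that set, so they are no separate support for it. In the chromosome 17 cluster, late changes to A took up 1.27%, 1.57%, 1.02% and 1.14% of the cluster's reads in IVF 2-cell replicates 1 to 4, against 0.581%, 0.566% and 0.574% in oocytes. The chromosome 6, 23 and 3 clusters were also without overlap, and the cluster at chr14:4892124-5053723 overlapped, with 0.401% to 0.754% in IVF 2-cell embryos and 0.369% to 0.403% in oocytes. Of 222 tested entries of this kind, 22 were higher (9.91%) and 3 lower (1.35%) at an unadjusted p under 0.05, against 2.01% and 3.38% over all entries, and none was called. Their median log2 change was 0.37, against -0.37 over all entries. The table cannot show whether the A belongs to the RNA or to the genome of the animals, and donors, which the labels do not give for the oocytes, cannot be told apart from the stage. That the listed entries were all found in a 2-cell library bears on this excess as well, and its part was not tested.

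4 piRNA entries that the variance-stabilised fit did not call passed under another scaling of the same libraries. A piRNA of the cluster at chr13:77224209-77381007 with the mismatch T5C had 72.6, 116, 169 and 113 CPM in IVF 2-cell replicates 1 to 4, against 12.2, 11.8 and 10.0 in oocytes. The groups were apart, and the means differed 10.3-fold. limma gave it an adjusted p of 0.161 on the deposited scale, and 0.00964, 0.0477 and 0.0177 after median centring, quantile normalisation and on CPM. The other 3 carried late changes to A. The entry with G26A in the cluster at chr2:93033110-93043754 had 130, 269, 212 and 152.2 CPM in IVF 2-cell embryos, against 48.9, 15.8 and 26.04 in oocytes (adjusted p = 0.0383 on CPM, 0.335 on the deposited scale).

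No miRNA passed the test. Of 257 tested miRNA entries without a mismatch, limma called 0, with 10 higher and 10 lower at an unadjusted p under 0.05 (3.89% each), against 2.01% and 3.38% over all entries. Abundant ones overlapped between the groups. miR-19b had 1576, 1319, 1665 and 2142 normalised reads in IVF 2-cell replicates 1 to 4, against 2788, 2494 and 1916 in oocytes (log2 change -0.52, SE 0.70, adjusted p = 0.926). miR-16a-5p had 2046, 1198, 1229 and 2532 in IVF 2-cell embryos, against 2441, 2573 and 1505 in oocytes (adjusted p = 0.951). Both overlapped between the groups. miR-34c-5p, which mouse sperm carry into the zygote, had 31.3, 15.1, 13.2 and 14.6 normalised reads in IVF 2-cell embryos, against 15.1, 39.2 and 14.1 in oocytes. The oocyte range covered the embryo range nearly whole.

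miR-202, a miRNA of gonads and oocytes, came nearest to a call among those lower in embryos. It had 0, 15.1, 214 and 58.6 normalised reads in IVF 2-cell replicates 1 to 4, against 654, 118 and 123 in oocytes (log2 change -2.91, SE 0.78, limma adjusted p = 0.0937). Replicate 3 was the only embryo library within the oocyte range. The entry miR-202-5p had 31.3, 37.8, 581 and 376 normalised reads in IVF 2-cell embryos, against 891, 230 and 415 in oocytes. Here replicates 3 and 4 lay in the oocyte range. Entries of the oocyte-enriched list (9 of 10 names found) had a median log2 change of -0.75 over 17 tested, against -0.37 over all entries. Of these 17, 0 were called and 4 were lower at an unadjusted p under 0.05, against 221 of 6531 (3.38%) over all entries. The summed list overlapped, at 1242 to 2212 CPM in IVF 2-cell embryos and 1434 to 2074 in oocytes.

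miR-451, made by red blood cell precursors, lay on the other side. It had 41.8, 102, 20.5 and 312 normalised reads in IVF 2-cell replicates 1 to 4, against 10.1, 9.80 and 0 in oocytes (log2 change 3.28, SE 0.93, limma adjusted p = 0.154). The groups did not overlap, as 1.27% of all tested entries did on the higher side. The summed blood and serum list was 237, 324, 258 and 703 CPM in IVF 2-cell embryos, against 108, 103 and 128 in oocytes. Single tested entries lay higher in this way in CPM in 4.01% of cases. Of its 13 entries 6 were tested, of which 3 had a positive change and 0 were called, and 3 of its 7 names had no read in the 7 libraries. As a share of reads of miRNAs without a mismatch the list overlapped, at 0.323% to 2.51% in IVF 2-cell embryos and 0.397% to 0.694% in oocytes. Fetal bovine serum was in the medium of both groups per the labels, and its part in these values was not tested.

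The let-7 family, the miR-17-92 family and the miR-15/16 family had 0 called entries among 17, 20 and 16 tested, with median log2 changes of -0.21, -0.18 and -0.28, against -0.37 over all entries. The same was true of the mesenchymal list, with a median of -0.20 over 11 tested entries and of the miR-30 family, with -0.43 over 8. The sperm and testis list had -0.43 over 9 tested entries, the muscle and neural list -0.55 over 12, and the epithelial and trophectoderm list -0.53 over 6. The cumulus and granulosa list had a median of 0.11 over 19 tested entries. Of these 19, 2 were higher at an unadjusted p under 0.05, against 131 of 6531 (2.01%) over all entries. No entry of the miR-371 and miR-302 families had a read in the 7 libraries.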

How the data were processed

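Small RNA of pooled oocytes and embryos was sequenced on an Ion Proton, per the labels. The submitters' processing notes name Trim Galore and DESeq2 as tools of the authors, and the builds bosTau8 and UMD3.1, with no role for any of them. Cluster coordinates are printed as the table gives them. Aligner, annotation source and versions: not given in the sources used here. What the authors deposited are variance-stabilised log2 values. Inverting them as a parametric variance-stabilising transformation gave whole multiples of 1 step per library for 100% of values (tolerance 0.01 reads), with the smallest value above the lowest taken as 2 reads. Reads, the authors' size factors and normalised reads (reads over size factor) and CPM (reads scaled to a common total of listed reads) were computed from this, and the absolute scale of reads rests on it. Reads are not independent molecules, and floors cover counting error only.

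Groups followed the sample titles. The members, lists and naming rule were chosen with earlier results of these data known. limma 3.58.1 in R 4.3.3 (lmFit, eBayes with intensity trend, Benjamini-Hochberg) was fitted to the 7 libraries without covariates, on the 6531 entries that exceeded the lowest value by 1 log2 unit or more in 3 or more of them. With 5 residual degrees of freedom the prior degrees of freedom were infinite, so standard errors follow the level of an entry and not its own spread. An entry without reads in 1 group could pass this filter through the other group alone, which fixed its direction. Changes are IVF 2-cell minus oocyte, on a scale that understates low entries. Shares were compared with two-sided exact permutation tests. The fit was tested on simulated data. Alternatives were filters, trend, library weights, other scalings, voom, a replicate block, all 12 groups and single libraries left out. Chosen later, with the data seen, were voom with the authors' size factors and other positions for late mismatches. Named were all called entries, the 3 with the largest statistics each way in each class, the most abundant ones and a fixed set, of which the text gives part. Entries called only under another scaling and those picked from the mismatch and amino acid sets were named after their values were seen. The planned comparison of piRNA lengths was not made, because the table holds no sequences.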

Additional observations from a re-analysis of the deposited data

Results flagged for a closer look

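Among 38 values checked for 1 library far from the other 3 within the IVF 2-cell group, 8 stood apart by Dixon's criterion, which chance alone meets in about 1 group in 20. In 7 of the 8 the library was IVF 2-cell replicate 3. It held 0.108% snoRNA reads, against at most 0.0315% in the other IVF 2-cell libraries, and 0.748% miscellaneous RNA reads, against at most 0.396%. It had the lowest share of piRNA reads from the cluster at chr6:110178897-110333441, at 31.1%, and from the cluster at chr1:24843004-24848302, at 0.720%, where the others held 0.948% to 0.980%. It had the most normalised reads of the 5′ tiRNA AlaAGC, at 228, of the 5′ tiRNA ValTAC of trna4963, at 913, and of the short 5′ fragment GlyCCC of trna6425, at 4975. The remaining value was the share of piRNA reads from the cluster at chr10:8350209-8359878, at 1.38% in IVF 2-cell replicate 4, against 1.13% to 1.17% in the others.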

How the results depend on the processing

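The count of 11 called entries depended on the processing. limma called 18 with a stricter filter, 31 with library weights, 7 with a pseudocount of 8 and 6 by voom with the authors' size factors. These shared 11, 11, 7 and 5 with the 11. It called 3 on CPM and 1 after quantile normalisation, and these shared 0 with the 11. It called 0 without an intensity trend (439 at an unadjusted p under 0.05), 0 by voom on library sizes (558) and 0 with the replicate number as a block (267). One fit over all 12 groups called 365, of which 95 were higher and 270 lower, and shared 6 with the 11. Median centring called 9, all higher and 5 of them among the 11, and moved the median log2 change of all entries to -0.04, from -0.37. Leaving out 1 library at a time gave 0 to 10 calls. The replicate numbers did not pair the libraries, with correlations of -0.0077, -0.0387 and 0.0261 between same-numbered libraries, so the block is a hint only. The median log2 change over all tested entries was -0.03 without IVF 2-cell replicate 3. It was -0.61 to -0.26 when any other single library was left out. The cause of these shifts was not tested. Of 1165 values of single named entries under the alternatives, 0 reversed a call, 125 lost one and 34 gained one. The difference in miRNA share ran from -0.262 to 2.17 percentage points when 1 library was left out, and was negative only without IVF 2-cell replicate 3. The piRNA, tRNA-derived, 5′ tiRNA and chromosome 6 cluster shares kept their direction under the alternatives run. With 1 library left out their smallest possible exact p was 0.1 or 0.0667, and 0.25 under the block, so those fits could not pass a test. Leaving out 1 library moved the 5′ tiRNA difference between 0.699 and 20.7 percentage points, and the replicate block gave 8.47. The excess of piRNA reads with a late change to A was 0.437 percentage points, 0.385 when counted from position 26, and 0.332 to 0.481 when 1 library was left out. The alternatives for piRNA lengths were not run.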

Other observations

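The late changes to A in piRNAs can be followed beyond the 2-cell stage in the same table. They took up 0.695% to 0.755% of piRNA reads in oocytes, 1.02% to 1.47% in IVF 2-cell embryos, 0.823% to 1.13% in IVF 8-cell embryos and 0.280% to 0.408% in IVF blastocysts. Embryos made by somatic cell nuclear transfer showed 1.00% to 1.56% at the 2-cell stage and 0.898% to 1.03% at the 8-cell stage. Fewer miRNA entries carry such a change, here from position 20 on. Of 13 tested, 12 had a positive log2 change from oocyte to IVF 2-cell embryo, with a median of 0.94, and 5 were higher without overlap in CPM. Among these 5 were miR-20a-5p with T24A, miR-16a-5p with G22A and miR-27a-3p with C21A, which had no oocyte read. They passed the filter on low values through the embryo libraries alone, so they could only come out higher. Over all tested entries 35.3% had a positive change and 4.01% were higher without overlap. An entry of miR-16a-5p with G22A had 10.4, 22.7, 5.85 and 14.6 normalised reads in IVF 2-cell replicates 1 to 4 and none in the 3 oocyte libraries. As a share of miRNA reads these entries took up 1.76%, 1.21%, 0.152% and 0.659% in IVF 2-cell replicates 1 to 4, against 0.196%, 0.424% and 0.342% in oocytes, so replicate 3 was below the oocytes. These entries were picked after their values were seen.

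The 5′ tiRNA of ValAAC stood higher again in the later embryo. It had 151 to 443 normalised reads in oocytes, 864 to 9707 in IVF 2-cell embryos and 15146 to 45988 in IVF 8-cell embryos, and 608 to 8008 in nuclear transfer 2-cell embryos. The short 5′ fragment of GlyCCC (trna6425) had 103 to 951 in oocytes, 1171 to 4975 in IVF 2-cell embryos and 1474 to 21162 in IVF 8-cell embryos. The called internal LeuCAG fragment did not continue, with 0 to 14.1 in oocytes, 21.9 to 239 in IVF 2-cell embryos and 0 to 26.9 in IVF 8-cell embryos.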
